A study of Mus musculus with 3 samples.

Results

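The Six3, Lhx5 or Fezf1 progenitors are cells of the embryonic mouse dorsal midline that carried at least 3 UMIs in sum of Six3, Lhx5 and Fezf1 and few UMIs of genes that mark neurons, neurogenic intermediates, choroid plexus epithelium and 2 other patterned territories. They numbered 1489 of the 33001 cells that had at least 1000 genes, at least 2000 UMIs and at most 10% mitochondrial UMIs: 635 in the first wild-type library, 554 in the second and 300 in the Gmnc-/- library. A UMI (unique molecular identifier) marks 1 captured RNA molecule. The other limits were at most 1 UMI of Barhl2 and Olig3, at most 2 of Fgf8, Fgf17 and Fgf18, at most 4 of Neurog2, Eomes and Gadd45g, under 8 UMIs of Tubb3 and Stmn2 per 10000, and under 20 UMIs of Ttr per 10000. The comparison cells met every one of these other limits and held no UMI of the 3 genes. There were 3657, 3063 and 6376 of them, and they are called cells at 0. Wherever 3 values stand together they are for the first wild-type, the second wild-type and the knockout library, in that order.

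The study profiled single cells dissected from the region of the cortical hem, the signalling centre at the dorsomedial edge of the developing cerebral cortex, in C57BL/6J embryos with 10x Genomics v3 3' chemistry. Both wild-type libraries were loaded from 1 suspension that pooled 4 PGKCre;Rosa26YFP embryos at E11.5 with 4 Wnt3aCre;Rosa26tdTomato embryos at E12.5, so they are technical repeats and count as 1 sample. The knockout library came from 1 suspension of 4 Gmnc-/- embryos at E12.5, for which the labels name no reporter. PGKCre recombines broadly, and Wnt3aCre marks cells of the hem lineage, so tdTomato marks only part of the E12.5 wild-type cells. The wild-type matrices held 28001 features and were made by Cell Ranger 3.1.0, and the knockout matrix held 32285 and was made by 6.0.0. Stage, transgenes, sequencing, gene reference, processing and genotype therefore cannot be told apart between the wild-type and knockout suspensions. With 1 suspension per genotype there is no test between genotypes, and every interval is an exact 95% interval that covers counting error only.

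Six3 is a homeobox factor of the anterior neural plate, best known for its part in forebrain and eye formation. Lhx5 is a LIM homeodomain factor of the early forebrain, and Fezf1 is a zinc finger repressor of the rostral forebrain. The dorsal telencephalic midline is patterned by Wnt and Bmp signals from the hem and gives rise to the hem, the choroid plexus and Cajal-Retzius neurons. Gmnc, a relative of Geminin, is known for starting the multiciliated cell programme.

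The libraries held 12426, 10399 and 20256 barcodes and 148073906, 139978761 and 259403297 UMIs. The wild-type libraries shared 1914 barcodes, 15.4% and 18.4% of their barcodes, against 78 and 42 shared with the knockout. The copies of a shared barcode differed by a median of 43.0-fold in UMIs, with a median of 705.5 UMIs in the lower copy. No progenitor was counted in both libraries, but 83 and 149 progenitors sat on a shared barcode, 1 in each library as the lower copy. Results are given with these barcodes and, where they change, without them. Progenitors had medians of 14026, 15470.5 and 13616.5 UMIs, and the cells at 0 had 12680, 13818 and 9141. The progenitors' median mitochondrial shares were 4.56%, 4.56% and 3.22%. Gmnc had 88, 86 and 18 UMIs in the progenitors (8.10, 8.27 and 3.60 UMIs per 1000000, CPM) and was at 169 CPM in Ttr-rich knockout cells with 3 or more UMIs of the 3 genes, so its 3' tags do not check the genotype.

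The progenitors made up 6.71% (95% interval 6.21 to 7.23) and 6.79% (6.25 to 7.36) of the filtered wild-type cells and 1.95% (1.74 to 2.18) of the filtered knockout cells. The wild-type mean was 3.46 times the knockout share. Cells with 3 or more UMIs of the 3 genes before the other limits differed less, at 16.4%, 17.3% and 12.8% of the filtered cells. Of these cells, 41.0% and 39.2% met the other limits in the wild-type libraries and 15.3% in the knockout. The Fgf8, Fgf17 and Fgf18 limit left out 5.29%, 3.75% and 26.9% of them, and the Neurog2, Eomes and Gadd45g limit left out 18.7%, 21.4% and 37.3%. Whether these limits account for the difference in share was not tested.

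The ratio was smaller at equal depth and without wild-type cells that held a YFP UMI. Thinned to 5000 UMIs per cell, the shares were 2.29%, 1.99% and 0.930%, and the wild-type mean was 2.30 times the knockout share. Of the filtered cells, 9213 of 9468, 7829 of 8158 and 13222 of 15375 reached that depth. The limits set in raw UMIs were applied unchanged to the thinned counts. Thinning thus also loosened the limits on the Barhl2, Fgf8 and Neurog2 groups of genes, and the part of this in the ratio was not tested. With wild-type cells that held a YFP UMI left out, the reporter of the E11.5 embryos, the wild-type shares were 3.83% and 3.30% and the ratio was 1.83. With both changes at once, chosen after the data were seen, the shares were 1.34%, 0.685% and 0.930%, and the pooled ratio was 1.12 (0.807 to 1.53), an interval that spans equal shares. Without the shared barcodes the wild-type share was 6.09% and the ratio 3.12. Free RNA in the droplets was read from erythroid cells, which should lack the 3 genes: 0 of 186, 0 of 174 and 3 of 161 held 3 or more UMIs of them, at median depths of 15595, 17614 and 16017 UMIs. The zeros allow up to 1.61% and 1.72%, and the knockout value was 1.86% (0.386 to 5.35). These erythroid shares were taken before the other limits, where the shares of all filtered cells were 16.4%, 17.3% and 12.8%. The knockout share of progenitors, 1.95%, was taken after those limits and is not a like value. How much free RNA added to the progenitors was not tested. Among the cells that met the other limits, the progenitor share was 12.6%, 13.3% and 4.01%.

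**Figure D1:**
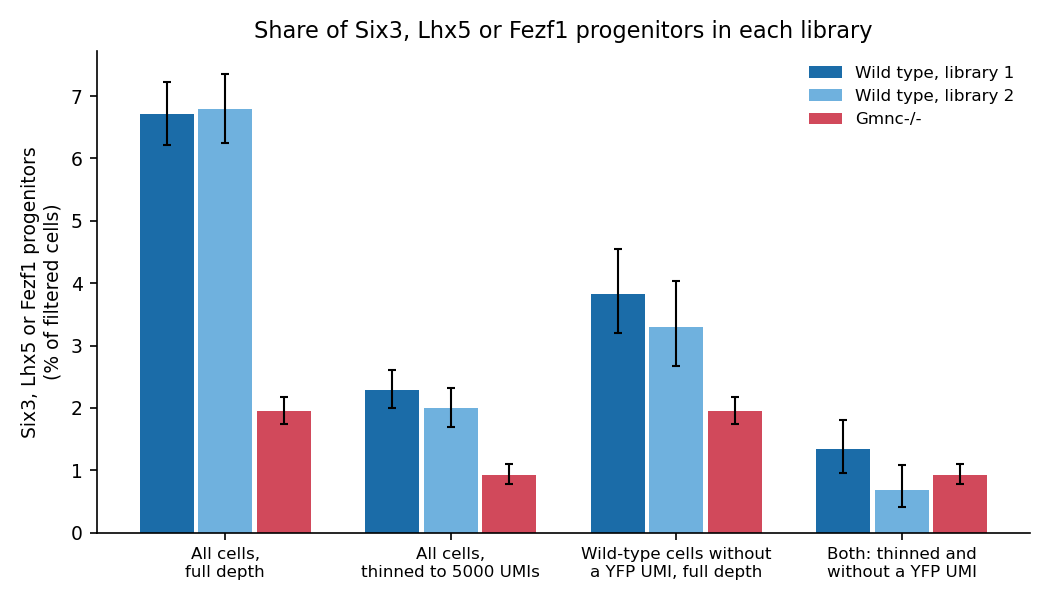
Share of Six3, Lhx5 or Fezf1 progenitors among filtered cells (y axis, percent) in the 3 libraries under 4 settings; bars are shares and lines are exact 95% binomial intervals. At full depth both wild-type libraries stood at 6.71% and 6.79% above the knockout at 1.95%, and with thinning and the YFP limit together the knockout at 0.930% lay between them.

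Among the wild-type progenitors, 80.3% and 83.4% held a YFP UMI, against 61.7% and 61.0% of the cells at 0. A tdTomato UMI was found in 11.0% and 10.8% of the progenitors and in 12.3% and 12.3% of the cells at 0. Erythroid cells held a YFP UMI in 56.5% and 53.4%, and 18.0% and 18.7% of the cells with 5 or more tdTomato UMIs held one, so a single YFP UMI is a loose mark of stage. Progenitors made up 8.22% and 8.60% of the cells with YFP and 5.17% and 4.61% of the cells with tdTomato and no YFP. Between progenitors with and without YFP, 8 of 5851 genes were at least 2-fold higher with YFP in both libraries (0.137%) and 1 was lower (0.0171%). The lower one was Gt(ROSA)26Sor, the locus that carries both reporters, at 25.1 against 54.6 CPM and 26.4 against 53.8 CPM. Among the higher ones Lix1 was at 28.1 against 12.4 CPM and 24.2 against 8.86 CPM, and Sox1, a progenitor transcription factor, at 39.6 against 17.8 and 37.9 against 17.7. Fezf1 was at 47.0 against 24.0 and 48.3 against 18.9 CPM, and Six3 at 233 against 226 and 206 against 222, so Fezf1, though not called, differed with the reporter more than Six3.

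Six3 was at 232, 209 and 197 CPM in the progenitors and was detected in 97.0%, 95.8% and 91.7% of them. Lhx5 was at 87.4, 83.2 and 83.8 CPM, in 66.5%, 64.3% and 63.3% of the cells. Fezf1 was at 42.3, 43.5 and 23.2 CPM, in 38.6%, 41.7% and 24.3%. The progenitors were chosen by these UMIs, so the levels are a description. In erythroid cells Six3 was detected in 0.538%, 1.15% and 6.21%. The genes lie on GRCm38 at chr17:85613608-85629302 (Six3, plus strand), chr5:120431699-120441223 (Lhx5, plus strand) and chr6:23245044-23248362 (Fezf1, minus strand) in GENCODE vM21.

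The promoters of Six3 and Fezf1 are printed because nearly all progenitors held Six3 and the presence of Fezf1 divided them into patterns. They run from 250 bases before to 50 after the annotated start in RefSeq on GRCm38.p6, at chr17:85620584-85620883 on the plus strand and chr6:23248215-23248514 on the minus strand, and capitals mark CCAAT on either strand.
Six3: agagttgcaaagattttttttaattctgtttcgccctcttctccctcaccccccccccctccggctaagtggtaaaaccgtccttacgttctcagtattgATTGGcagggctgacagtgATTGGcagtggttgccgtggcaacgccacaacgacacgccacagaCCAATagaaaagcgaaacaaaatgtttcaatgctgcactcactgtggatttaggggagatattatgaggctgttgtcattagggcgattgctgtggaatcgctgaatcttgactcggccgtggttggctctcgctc
Fezf1: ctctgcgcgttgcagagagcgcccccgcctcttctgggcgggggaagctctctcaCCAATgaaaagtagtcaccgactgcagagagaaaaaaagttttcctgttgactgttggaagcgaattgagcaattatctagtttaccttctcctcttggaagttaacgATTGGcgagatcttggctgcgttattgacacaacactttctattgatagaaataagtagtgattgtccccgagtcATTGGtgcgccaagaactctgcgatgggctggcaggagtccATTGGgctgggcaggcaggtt
CCAAT occurred 3 times in the Six3 window and 4 times in the Fezf1 window, and it occurred at least once in 37.4% of the 32851 RefSeq promoters of that length. TAATCC, searched on both strands, occurred in neither window and in 7.06% of all promoters. The Dlk1 window held neither motif. These matches describe letters and show no binding.

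The cells carried the markers of neural progenitors. Sox2, a transcription factor of neural stem cells, was detected in 98.0%, 99.1% and 98.0% of the progenitors, against 10.8%, 11.49% and 24.2% of erythroid cells. Its level was 470, 472 and 622 CPM, against 389, 383 and 395 in the cells at 0. Vim, an intermediate filament of radial glia, was at 1937, 1990.5 and 1431 CPM against 1513, 1523 and 1107. Dcx, a microtubule protein of young neurons, was at 2.85, 3.94 and 6.40 CPM against 3.11, 3.18 and 6.69. The rule had not used Sox2, Vim or Dcx. Its limits on Tubb3 and Stmn2 and on Neurog2, Eomes and Gadd45g applied to both sets, so low Dcx partly follows from the choice of cells. Of 4 neuron markers deep enough, Elavl3 and Elavl4 were lower in the progenitors and 0 were higher. Over all tested genes 1.07% were lower and 2.98% higher. Of 10 progenitor markers 1 was at least 2-fold higher than in the cells at 0 and 1 was lower. The higher one was Slc1a3, a glutamate transporter of radial glia, at 69.0, 64.7 and 82.4 CPM against 26.6, 26.3 and 33.1. The lower one was Sox3, a relative of Sox2, at 57.8, 60.6 and 51.0 against 159, 159 and 121. Fabp7 was at 426, 464 and 670 CPM against 434, 435 and 658, a level shared with the cells at 0.

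Markers of other lineages were mostly scarce. The 7 microglia markers summed to 1.10, 3.94 and 3.20 CPM against 94.5, 65.4 and 102 in the cells at 0, and haemoglobin genes to 3164, 1876 and 9004 CPM against 40843, 48082 and 30621. No progenitor held at least 50% haemoglobin UMIs, while 5.0%, 5.52% and 2.12% of the cells at 0 did. Among the mesenchyme markers, the collagens Col1a2 and Col3a1 and the proteoglycan Lum were lower in the progenitors in all 3 libraries. Prrx1, a mesenchyme marker, was at 45.4, 40.4 and 46.2 CPM in the progenitors and 33.8, 35.7 and 38.9 in the cells at 0. Kdr, an endothelial receptor, was at 13.3, 14.9 and 31.6 CPM against 1.93, 1.88 and 7.84. At 3 or more UMIs of mesenchyme, endothelium and microglia markers stood 19.7%, 20.4% and 30.7% of the progenitors, against 7.55%, 10.4% and 10.7% of the cells at 0. Leaving such cells out gave 187 higher and 69 lower genes between progenitors and cells at 0, where 181 and 65 stood with all cells.

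Against the cells at 0 of the same library, 181 of 6073 genes were higher by at least 2-fold in all 3 libraries (2.98%) and 65 were lower (1.07%). The 181 include Six3, Lhx5 and Fezf1, which the choice of cells fixed as higher, and Ttr, which it limited in both sets; 176 were neither genes of the rule nor of the classes left out of the ranking. To be called, a gene had to reach 50 UMIs and 20 CPM in whichever set of cells was higher, with 95% Poisson intervals that did not overlap. Scaling by median-ratio size factors in place of totals gave 132 higher and 104 lower genes, since it moved the median log2 fold over all tested genes from 0.15, 0.16 and 0.16 to -0.04, -0.03 and -0.09. All 65 lower genes and 132 of the 181 higher genes kept their call. Without the shared barcodes there were 161 higher and 65 lower genes, 158 and 61 of them the same. With the cells at 0 weighted to the depth of the progenitors there were 193 and 72. Thinning to 5000 UMIs per cell, which leaves fewer UMIs per gene, gave 51 higher and 62 lower genes. With haemoglobin-rich and other-lineage cells left out of the cells at 0, 168 of the 181 higher and 52 of the 65 lower genes kept their call.

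Dlk1, an imprinted gene that encodes a transmembrane Notch-like ligand, was at 149, 156 and 70.4 CPM in the progenitors and 4.19, 3.89 and 2.35 CPM in the cells at 0. This was 35.6-fold (30.9 to 41.2), 40.1-fold (34.4 to 47.0) and 30.0-fold (24.9 to 36.2) higher. It was detected in 45.0%, 46.4% and 34.7% of the progenitors, against 3.69%, 3.72% and 1.94% of the cells at 0 and none of the 186, 174 and 161 erythroid cells, which allows up to 1.61%, 1.72% and 1.86%, and in each library the share stood far above both backgrounds. Adamts9, a secreted metalloprotease, was at 36.5, 37.4 and 25.6 CPM against 3.69, 3.74 and 5.26. Ntrk2, the receptor of brain-derived neurotrophic factor, was at 240, 238 and 218 CPM against 59.4, 58.1 and 36.8. These 3 markers, named with earlier results of these data known, were all called higher; Adamts9 was not called with wild-type cells that held YFP left out, nor at 5000 UMIs per cell. Dlk1 lies at chr12:109452823-109463336, Adamts9 at chr6:92772699-92943492 and Ntrk2 at chr13:58806569-59133970.

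Of the 15 genes highest by fold, 4 are named here as transcription factors. Mecom, a zinc finger factor, was at 97.3, 83.9 and 83.0 CPM against 4.80, 4.21 and 7.21 in the cells at 0. Otx2, a homeobox factor of the forebrain and choroid plexus, was at 344, 312 and 458 against 28.6, 29.5 and 45.7, and was detected in 90.2%, 92.1% and 89.3% of the progenitors. Nr2f2, a nuclear receptor also called COUP-TFII, was at 476, 447 and 466 against 57.1, 63.1 and 55.6. Zfp503, a zinc finger factor, was at 136, 150 and 167 against 14.99, 14.7 and 20.6. Each of these factors was separated from the cells at 0 in every library.

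The other genes named by rank include genes for secreted, surface and RNA-binding proteins. Sulf1, which trims heparan sulfate, was at 403, 366 and 471 CPM against 41.4, 41.1 and 48.5. Gdf5, a Bmp family ligand, was at 30.7, 26.7 and 22.0 against 2.18, 2.29 and 1.99. Ednrb, an endothelin receptor, was at 39.8, 42.1 and 76.8 against 5.15, 6.45 and 8.53. Rbm47, Fign, Clic6, Chl1, Trpm3 and Plekha6 had log2 folds (1 CPM added to both sides) between 2.68 and 3.97 in these libraries. At 5000 UMIs per cell 7 of the 15 genes highest by fold kept their call, and these 6, Gdf5 and Ednrb did not. Plekha6 also lost its call under the size factors, at 2 UMIs or more of the 3 genes and below the 95th percentile of UMIs. The same held for Plekha6 without other-lineage cells, without wild-type cells that held YFP and without the shared barcodes. Trpm3, a cation channel known from the choroid plexus, was at 53.1, 41.6 and 210 CPM, the highest in the knockout, where the cells at 0 were also highest at 12.4.

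**Figure D2:**
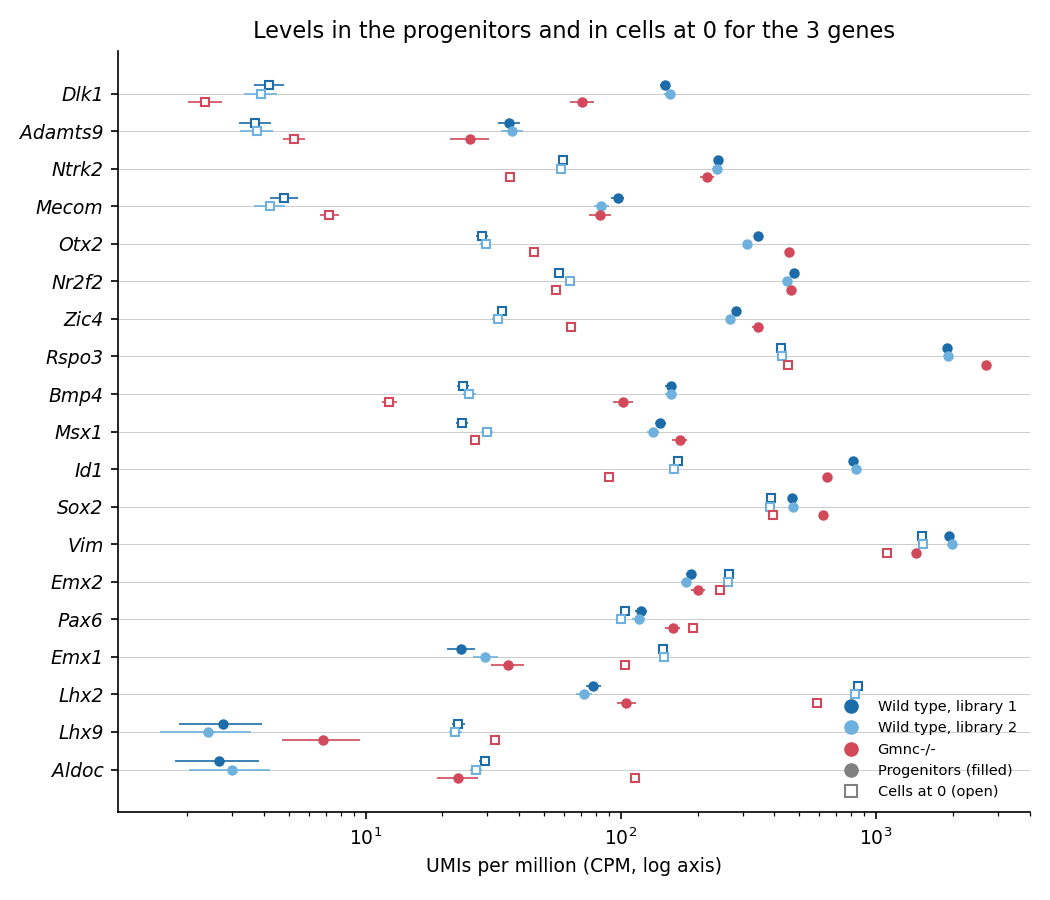
Level of 19 genes (x axis, CPM, log axis) in the progenitors (filled circles) and in cells at 0 for the 3 genes (open squares) of each library; lines are exact 95% Poisson intervals. Dlk1 to Id1 lay to the right of the cells at 0 in all 3 libraries, Emx1 to Aldoc lay to the left, and Sox2, Vim, Emx2 and Pax6 differed by less than 2-fold.

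Genes of the telencephalic pallium split. Lhx2, which sets cortical over hem identity, was at 78.1, 71.7 and 105 CPM in the progenitors and 852, 827 and 588 in the cells at 0, which was 10.9-, 11.54- and 5.60-fold lower. Emx1 was at 23.7, 29.4 and 36.2 against 147, 147 and 104, and Sp8 at 5.98, 7.02 and 30.6 against 41.4, 38.2 and 67.4. Emx2 was at 189, 180 and 200 against 265, 264 and 244, and Pax6 at 120, 118 and 160 against 104, 100 and 192, neither reaching 2-fold. Emx1, Lhx2 and Sp8 were called lower and kept the call under size factors, and of the 11 pallial genes deep enough 1, Nr2f2, was higher. Among all tested genes 1.07% were lower and 2.98% higher. The other genes lowest by rank were Tgfb2 (5.25, 4.52 and 13.2 CPM against 78.2, 74.5 and 78.5), Aldoc (2.67, 2.98 and 23.0 against 29.3, 27.0 and 113), Bach2, Cadps, Lhx9, Lix1, Mt1 and S100a10. S100a10 lost its call with haemoglobin-rich and other-lineage cells left out of the cells at 0. It also lost it at 5% mitochondrial UMIs and with other-lineage cells left out of both sets.

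Few genes that mark other territories were deep enough to be called. None of the 12 subpallial and none of the 10 hypothalamic and eye field genes was. The subpallial genes summed to 24.4, 28.4 and 51.4 CPM against 15.7, 14.7 and 19.2 in the cells at 0. The hypothalamic and eye field genes summed to 4.42, 3.08 and 7.20 CPM against 8.43, 11.2 and 10.6. The Six3 relative Six6, an eye field factor, had 0, 0 and 1 UMIs in the progenitors, and Nkx2-1, a hypothalamic factor, had none. Six4 and Six5 differed from the cells at 0 by less than 2-fold. Of the 14 caudal diencephalon genes 1, Tcf7l2, was deep enough and it was not called, at 55.8, 59.7 and 70.2 CPM against 30.4, 30.0 and 29.6. Of 2 thalamic eminence genes deep enough Lhx9, a LIM homeodomain factor, was lower at 2.76, 2.41 and 6.80 CPM against 23.1, 22.5 and 32.2. All 5 Zic genes, zinc finger factors of the dorsal midline, were higher, with Zic1 at 475, 480 and 483 CPM against 126, 132 and 197 and Zic4 at 282, 269 and 344 against 34.3, 32.9 and 63.9. The median log2 folds of the Zic genes were 1.90, 1.86 and 1.59, and all 5 kept their call under size factors. Among all tested genes 2.98% were higher and 1.07% lower.

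Secreted Wnt agonists and ligands of the hem were higher. Rspo3, an R-spondin that raises Wnt receptor levels, was at 1907, 1923 and 2710.4 CPM against 426, 427 and 454. Rspo2 was at 486, 492 and 553 against 104, 104 and 74.9, and Rspo1 at 890, 1055 and 860 against 413, 434 and 228. Wnt8b was at 720, 766 and 926 against 347, 346 and 366, and Wnt3a, a hem ligand, at 43.6, 45.6 and 37.2 against 19.8, 20.9 and 8.46. In the hem list 9 of 10 genes deep enough were higher and none was lower, with median log2 folds of 1.68, 1.62 and 2.31 against 0.15, 0.16 and 0.16 over all genes. The shares over all tested genes were 2.98% higher and 1.07% lower. Lmx1a, a LIM homeodomain factor that marks the hem, was at 69.2, 74.1 and 69.4 against 23.8, 25.9 and 14.9. Under size factors 6 of them kept the call, and Wnt3a, Rspo1 and Bmp7 did not, nor did Wnt8b.

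Along the Wnt pathway, 3 of 5 ligands were higher, of which Wnt9a, at 38.0, 45.3 and 43.2 CPM against 15.1, 15.3 and 7.65, kept its call under size factors. Of all tested genes 2.98% were higher and 1.07% lower. Among 4 antagonists Sfrp1, at 23.9, 24.4 and 43.4 CPM against 107, 106 and 153, and Wif1, at 7.46, 8.08 and 20.01 against 39.1, 40.8 and 43.5, were lower. None of 7 receptors was called with totals, and Fzd9 and Ror2 were lower under size factors. Of 6 targets, Axin2, a feedback inhibitor, was at 155, 164 and 277 against 62.6, 67.2 and 91.0, and Tnfrsf19, a tumour necrosis factor receptor family member, was at 31.2, 30.5 and 45.6 against 98.2, 97.2 and 117. Lef1 was lower under size factors only.

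Of 10 genes of Bmp signalling 7 were higher and 1 was lower, with median log2 folds of 1.70, 1.67 and 2.20. Over all tested genes 2.98% were higher and 1.07% lower, with medians of 0.15, 0.16 and 0.16. Bmp4, a ligand of the midline, was at 157, 157 and 102 CPM against 24.1, 25.5 and 12.4, and Bmp7 was at 93.4, 98.5 and 82.0 against 43.0, 39.8 and 29.0. The target Msx1, a homeobox factor, was at 143, 134 and 170 against 23.9, 29.9 and 26.7, and Msx2 at 85.0, 89.1 and 51.6 against 22.6, 25.7 and 8.53. The Id genes, targets that block basic helix-loop-helix factors, diverged. Id1 was at 811, 836 and 641 against 167, 162 and 89.9, Id3 at 2375, 2513 and 1855 against 819, 839 and 486, and Id2 at 325, 337 and 298 against 58.5, 60.5 and 49.2. Id4 was at 58.5, 58.6 and 140 against 252, 261 and 465, the opposite direction in every library.

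Other pathways gave isolated calls. Spry1, a feedback inhibitor of Fgf signalling, was 1 of 3 genes higher, Notch2 was 1 of 8 in the Notch list at 85.3, 74.6 and 150 CPM against 29.0, 27.0 and 51.1, and Ptch1, the Shh receptor, was higher while the co-receptor Boc was lower among 5. Ptch1 was not called under size factors. Of the imprinted genes Dlk1, Meg3 and Mest were higher, 3 of 10, with Dlk1 a marker named with earlier results known. Over all tested genes 2.98% were higher and 1.07% lower. Meg3, a long non-coding RNA of the Dlk1 locus, was at 361, 377 and 310 CPM against 90.3, 98.0 and 82.9. Mest, an imprinted hydrolase, was at 935, 946 and 428 against 242, 229 and 154.

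Adamts1, Adamts5 and Adamts9 were higher among 4 Adamts and matrix genes, and the first 2 are metalloproteases like Adamts9. Adamts9 is a marker named with earlier results known, and 2.98% of all tested genes were higher. Adamts1 was at 52.1, 45.9 and 81.2 CPM against 11.9, 14.1 and 18.9, and Adamts5 at 26.5, 24.6 and 47.0 against 3.94, 3.89 and 6.17. Among 11 ephrins and Eph receptors, which guide cells by contact, the ligand Efnb3 was higher, at 67.4, 68.1 and 51.0 against 28.1, 29.2 and 19.3, and the receptor Ephb1 was lower, at 6.08, 4.81 and 12.01 against 31.1, 30.3 and 49.6. Sema6a, a transmembrane semaphorin, was the 1 higher of 2 guidance genes, at 139, 131 and 142 against 27.4, 28.0 and 24.7. Ntrk3, another neurotrophin receptor, was at 2.12, 2.12 and 5.60 CPM against 18.5, 19.7 and 32.4.

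The 11 choroid plexus genes summed to 722, 678 and 901 CPM in the progenitors, against 92.1, 86.3 and 171 in the cells at 0. Ttr, which the rule limited, was at 189, 185 and 270 CPM, and Kcne2 and Htr2c, channel and receptor of mature epithelium, were at 2.39, 1.83 and 1.40 CPM and 3.87, 2.79 and 2.60 CPM. Foxj1, a factor of motile cilia, was at 33.3, 35.0 and 25.8 against 13.6, 14.3 and 5.64. Folr1, a folate receptor of that epithelium, was at 85.6, 79.0 and 81.0 against 16.4, 16.5 and 13.3. The 4 of 4 choroid plexus genes deep enough were higher, where 2.98% of all tested genes were. They were Folr1, Otx2, Clic6 and Ttr, and the rule limited Ttr in both sets. None of 15 S phase and 16 G2 and M phase genes was called in either direction. Mki67, a proliferation marker, was at 269, 259 and 256 CPM against 184, 189 and 213 in the cells at 0.

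Levels differed by step with the number of UMIs of the 3 genes. Just outside the threshold, at 2 UMIs, Dlk1 was at 27.9, 67.6 and 23.3 CPM, and just inside, at 3 to 4 UMIs, at 92.6, 84.9 and 47.5. At 10 or more it was at 233, 270 and 119. Otx2 was at 277, 272 and 392 CPM just outside and at 335, 295 and 449 just inside. Lhx2 was at 130, 127 and 143 just outside and at 113, 87.2 and 106 just inside. For these 3 genes the cells with 1 or 2 UMIs lay between the cells at 0 and the cells with 3 to 4, and at 2 UMIs Otx2 and Lhx2 were nearer the progenitors. Hes5, a Notch target, was at 256, 306 and 317 CPM at 3 to 4 UMIs and at 110, 135 and 107 at 10 or more.

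**Figure D3:**
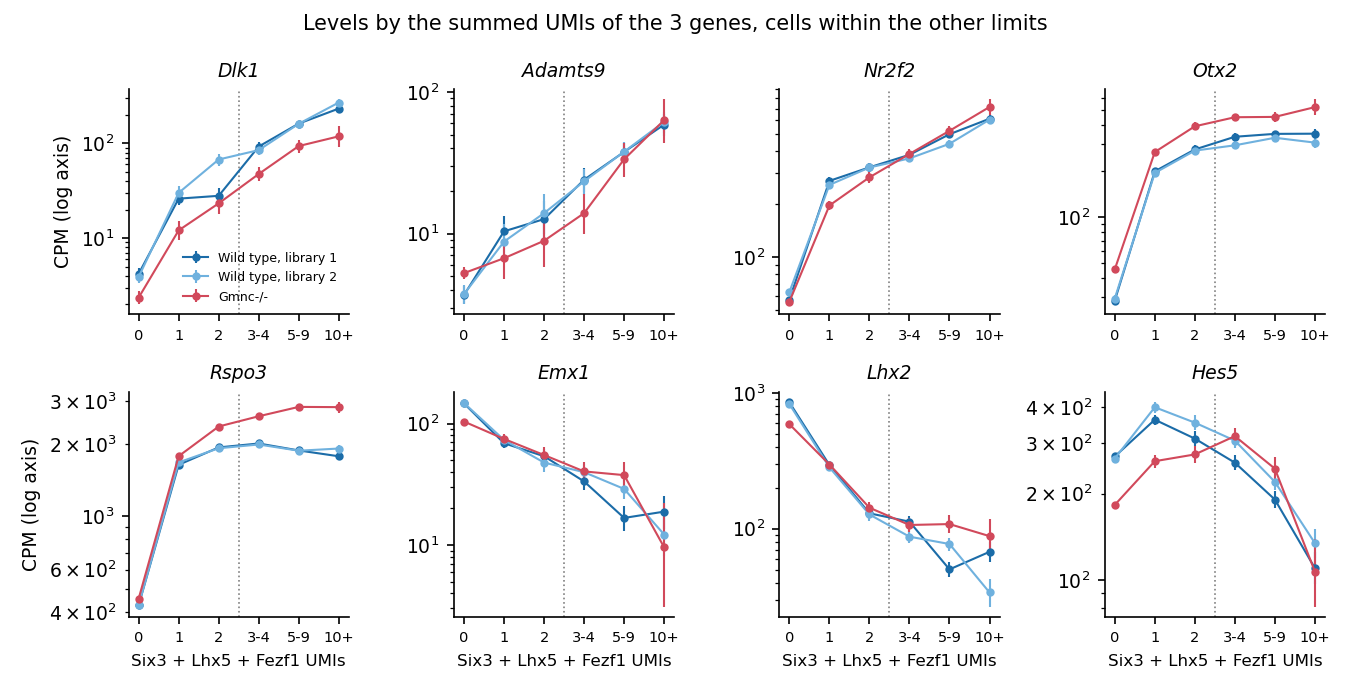
Level of 8 genes (y axis, CPM, log axis) by the summed UMIs of Six3, Lhx5 and Fezf1 (x axis) in cells that met the other limits; points are sums per library, lines are exact 95% Poisson intervals and the dotted line marks the threshold of 3. Dlk1, Adamts9 and Nr2f2 were higher in each further bin above the threshold in all 3 libraries, while Rspo3 in the wild type varied little beyond 1 UMI and Emx1 and Lhx2 were lower in every bin above the threshold than in the bins below it.

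Among the cells left out by the limits were 519, 490 and 765 with 3 or more UMIs of the 3 genes and 20 or more UMIs of Ttr per 10000. Between the progenitors and these Ttr-rich cells, 47 of 6297 genes were higher in the progenitors (0.746%) and 154 were lower (2.45%), Ttr among them by the choice of cells. Both sets were chosen on the summed UMIs of Six3, Lhx5 and Fezf1, so the levels of these genes are a description. In the Ttr-rich cells Six3 was at 277, 266 and 206 CPM and Lhx5 at 21.2, 17.1 and 15.8. Dlk1 in the Ttr-rich cells was near the level of the cells at 0 in the wild type and above that level in the knockout. It was at 4.05, 3.75 and 5.83 CPM in the Ttr-rich cells, against 149, 156 and 70.4 in the progenitors. Rspo1 was at 148, 169 and 194 against 890, 1055 and 860, and Fabp7, a radial glia fatty acid binding protein, at 41.7, 39.0 and 217 against 426, 464 and 670. Kcne2 was at 102, 118 and 161 CPM in the Ttr-rich cells, and Foxj1 at 250, 292 and 59.7.

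The 3 genes formed unequal patterns among the progenitors. Six3 with Lhx5 was the pattern of 33.9%, 30.7% and 37.3% of them, all 3 genes of 29.6%, 29.6% and 17.7%, and Six3 alone of 25.5%, 25.5% and 31.7%. Six3 with Fezf1 made up 8.03%, 10.1% and 5%. Lhx5 without Six3 and Fezf1 made up 2.05%, 2.17% and 6.67%, and Fezf1 alone was seen in 0, 1 and 0 cells, which allows up to 0.472% and 1% in the libraries without any. At 5000 UMIs per cell all 3 genes were found in 20.01% of progenitors in the wild type and in 17.1% in the knockout, a smaller gap than at full depth, where the intervals were 26.1% to 33.3%, 25.8% to 33.6% and 13.5% to 22.5%. Without the shared barcodes the wild-type shares were 29.3% for all 3 genes and 24.9% for Six3 alone.

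Progenitors with all 3 genes were set against those with Six3 alone; the patterns are read from the genes of the rule, so this is a description. Their median depths were 14775, 16648 and 12844 UMIs with all 3 genes and 14455, 16265 and 14925 with Six3 alone. Of 4283 genes 18 were higher in all 3 libraries (0.42%) and 52 were lower (1.21%). The 18 include Lhx5 and Fezf1, which are at 0 in cells with Six3 alone by definition. Without the shared barcodes there were 14 and 42, and without the progenitors that held 3 or more UMIs of other-lineage markers 8 and 34. At 5000 UMIs per cell 2 and 2 were called. Dlk1 was at 292, 316 and 143 CPM with all 3 genes and 25.7, 13.5 and 20.1 CPM with Six3 alone, and at 122, 115 and 85.4 with Six3 and Lhx5. Meg3 was at 610, 665 and 670 against 126, 77.5 and 106. Adamts9 was at 60.7, 57.4 and 69.7 against 11.6, 11.3 and 12.8, so 3 genes that set the whole group apart from the cells at 0 were concentrated in these cells.

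Some transcription factors showed the same split. Nr2f1 was at 423, 402 and 560 CPM with all 3 genes against 97.0, 75.8 and 71.5 with Six3 alone. Sox21, a Sox family factor, was at 79.2, 81.7 and 62.3 against 4.34, 7.08 and 11.7. Nr2e1, a factor of neural stem cells, was at 78.9, 99.1 and 67.2 against 16.3, 16.3 and 23.5. Genes lower with all 3 genes included Clic6 at 37.9, 34.0 and 19.6 against 161, 160 and 98.3 and Sulf1 at 216, 162 and 244 against 657, 687 and 673. Msx1 was at 70.7, 55.9 and 99.0 against 243, 235 and 246, and Wnt3a at 20.02, 24.0 and 19.6 against 57.6, 62.7 and 48.6. For Clic6, Sulf1 and Msx1 both patterns lay above the cells at 0, and Wnt3a with all 3 genes lay near them in the wild type.

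**Figure D4:**
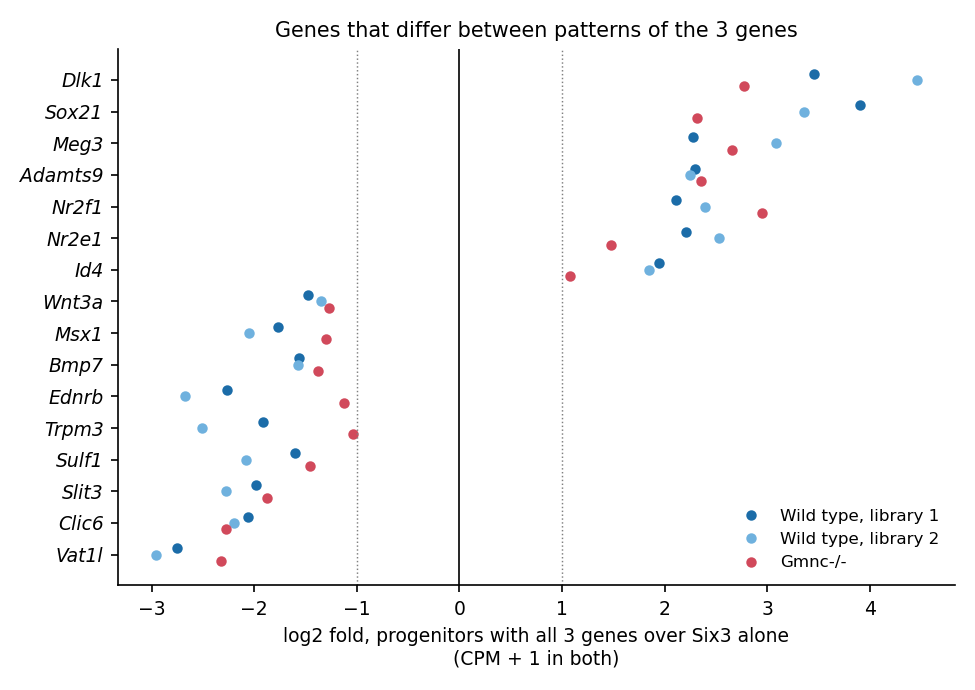
Log2 fold of 16 genes (x axis) between progenitors with a UMI of all 3 genes and progenitors with Six3 alone, with 1 CPM added to both; points are libraries and dotted lines mark 2-fold. Dlk1 to Id4 lay right of 2-fold and Wnt3a to Vat1l left of it in all 3 libraries.

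Between genotypes, 289 of 6815 genes were at least 2-fold higher in the knockout progenitors than in both wild-type libraries (4.24%) and 82 were lower (1.2%). The wild-type libraries differed from each other in 2 of 6463 genes. Much of this was shared with the cells at 0: 197 of the 289 and 45 of the 82 were off by 2-fold in the same direction in the cells at 0, where 3.46% and 1.18% of 6280 genes were called. Beyond the cells at 0 by a further 2-fold stood 23 higher (0.337%) and 1 lower gene (0.0147%). Without the shared barcodes these were 46 and 7, with the 23 and the 1 among them. Haemoglobin genes made up 5 of the 23, and summed to 3164, 1876 and 9004 CPM in the progenitors; their part in the other differences was not tested.

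Of the genes higher in the knockout progenitors beyond the cells at 0, Pcp4, a calmodulin-binding protein, was at 2.85, 2.60 and 24.2 CPM, and at 11.6, 12.8 and 37.5 in the cells at 0. Sp8, a zinc finger factor of the anterior forebrain, was at 5.98, 7.02 and 30.6, and in the cells at 0 at 41.4, 38.2 and 67.4. Fam129a was at 7.92, 12.51 and 36.2 against 9.94, 11.3 and 8.42 in the cells at 0. Dkk3, a Dickkopf family protein, was at 22.9, 28.2 and 74.4, and Ttyh1 at 29.5, 32.5 and 85.0. Palmd, Vcam1, Ptpre, Tnnt1 and Bfsp2 completed the 10, at between 4.14 and 8.08 CPM in the wild type and between 21.8 and 25.8 in the knockout. Mapk12, a stress kinase, was the 1 lower gene, at 20.9, 21.4 and 6.60 CPM. With wild-type cells that held YFP left out, 4 of the 10 (Pcp4, Sp8, Vcam1 and Ttyh1) kept the call and Mapk12 did not. In all 3 libraries these 4 genes were lower in the progenitors than in the cells at 0, where Vcam1 was at 32.9, 32.7 and 48.3 CPM and Ttyh1 at 163, 171 and 194. At 5000 UMIs per cell none of the 10 kept it, where fewer UMIs were left per gene.

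Among the marker genes Dlk1 had a log2 fold of -1.10 in the knockout progenitors and of -0.59 in the knockout cells at 0, and was called lower in the progenitors. With wild-type cells that held YFP left out it was at 115 and 78.0 CPM in the wild type against 70.4 in the knockout, and was not called, nor was it at 5000 UMIs per cell. Mest had a log2 fold of -1.14 and of -0.61. Fezf1, Six3 and Lhx5 were not called. The late timing list, genes that climb as progenitors age, had 6 of 8 members higher in the knockout progenitors, with a median log2 fold of 1.14 against 0.83 in the cells at 0 and -0.03 over all tested genes. In the Wnt antagonist list 3 of 5 were higher, Dkk3 among them, and 1, Sfrp2, was lower, where 4.24% and 1.2% of all tested genes were called. In the hem list 2 of 11 were higher, Wnt5a at 17.8, 19.9 and 56.0 CPM and Bmp6 at 2.39, 2.69 and 24.2. Fzd3, a Wnt receptor, was at 67.8, 64.0 and 357 in the progenitors and at 44.1, 42.5 and 210 in the cells at 0, a difference that both sets of cells showed. In the late timing list Nfia was at 169, 179 and 486 CPM and Nfib at 266, 272 and 600. Dissociation stress genes were higher in 4 of 7, with medians of 1.10 and 0.59, and Fos was at 51.5, 50.6 and 110. With wild-type cells that held YFP left out, 5 late timing, 3 stress and 2 Wnt antagonist genes were called higher. Between wild-type progenitors with and without YFP, Nfia was at 165 against 186 and 171 against 220 CPM. Zbtb20, also in the late timing list, went the other way, at 93.6 against 68.8 and 94.4 against 65.0, and neither was called. The E11.5 cells of the wild type and the handling of the suspensions go with genotype. Their part in these lists cannot be told apart from genotype. Trp73, a p53 family gene, had 16, 26 and 0 UMIs in the progenitors.

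**Figure D5:**
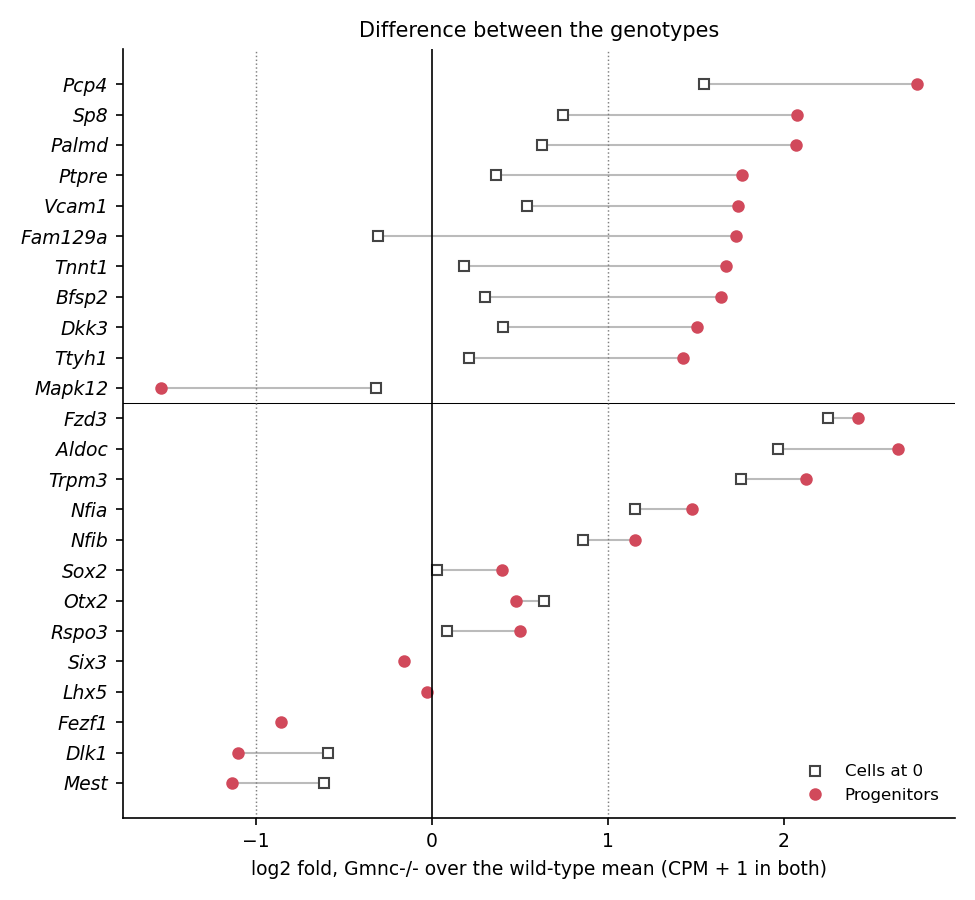
Log2 fold of the Gmnc-/- library over the wild-type mean (x axis, 1 CPM added to both) in the progenitors (filled circles) and the cells at 0 (open squares); rows above the line are the 11 genes named for a difference beyond the cells at 0, and the 3 rule genes have no value in the cells at 0. Fzd3, Aldoc and Trpm3 were higher in both sets of cells, while Fam129a was higher in the progenitors and slightly lower in the cells at 0.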

How the data were processed

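The authors deposited gene by cell count matrices for 3 libraries of 10x Genomics v3 chemistry, and these counts are whole UMIs per gene and cell. Per the file headers, Cell Ranger 3.1.0 made the wild-type matrices and 6.0.0 the knockout matrix. The submitters' processing notes name Cell Ranger 3.1.0 and mm10; which gene annotation went with it is not stated. The libraries were joined on 27040 shared Ensembl identifiers. Cells were kept at 1000 genes, 2000 UMIs and at most 10% mitochondrial UMIs. No doublet caller was run; cells above the 95th percentile of UMIs were left out as an alternative.

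UMIs were summed over the chosen cells of each library and divided by the summed total to give CPM, with exact Poisson intervals for levels, Clopper-Pearson intervals for shares and conditional intervals for ratios. A gene was called at 50 UMIs and 20 CPM on the higher side, 2-fold and with intervals that did not overlap in every library compared. Differences used a pseudocount of 1 CPM. The wild-type libraries are repeats of 1 suspension and count as 1 sample, so no test was made. The text names the 15 highest and 10 lowest genes against the cells at 0 by the fold nearest to 0, the 10 highest and 10 lowest in the knockout that were 2-fold beyond the cells at 0 (1 was lower), the marker genes, and up to 5 genes of each list; genes of the rule, mitochondrial, ribosomal, haemoglobin, sex-linked and unnamed genes were left out of the ranks, and some genes that the rule names are not reported here. Genes named from the comparison with Ttr-rich cells, from the patterns and from the reporter split were chosen after their values were seen. So were the alternatives without shared barcodes, with cleaned cells at 0, and with thinning and the YFP limit at once. The progenitors and lists were chosen with earlier results of these data known. The calls were run on simulated data: 67 of 67 genes changed 2.5-fold and 0 of 5247 unchanged genes were called between progenitors and cells at 0. The simulated counts held Poisson error only, without variation between cells or suspensions and without free RNA or doublets. They check the calculation and give no error rate for the calls in the real data. No column of per-sample values was left unmapped. Promoters came from RefSeq (GRCm38.p6). The work used Python 3.11.15, numpy 2.4.6, scipy 1.17.1, pandas 2.3.3 and matplotlib 3.10.9.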

Additional observations from a re-analysis of the deposited data

How the results depend on the processing

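No paired analysis was possible because no result comes from a test and the knockout has 1 library. Of 170 recomputed values for 16 results, 111 stayed within their limits and 59 moved beyond them. These results are shares, a ratio of shares and counts of genes, which have no sign that could change. In the same order, the share of members, wild type, the share of members, knockout, and the share of members, wild type over knockout, were 9.30%, 3.55% and 2.62 at 2 UMIs or more, 3.75%, 0.735% and 5.11 at 5 or more, 2.14%, 0.930% and 2.30 thinned, and 1.01%, 0.930% and 1.09 thinned without YFP cells. Wild-type shares were 7.17% at 5% mitochondrial UMIs, 6.07% (knockout 1.65%) without other-lineage cells, 3.57% (ratio 1.83) without YFP cells and 6.09% without shared barcodes, which, like the setting of thinning without YFP cells, were chosen after the data were seen.

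For the patterns, members with all 3 genes, wild type, and patterns, members with Six3 alone, wild type, the shares were 21.5% and 33.5% at 2 or more, 46.7% and 13.5% at 5 or more, 20.01% and 24.0% thinned, 33.4% and 20.9% at 5% mitochondrial UMIs, 29.4% and 25.3% below the 95th percentile, 31.9% and 23.6% without other-lineage cells, and 29.3% and 24.9% without shared barcodes. For patterns, members with all 3 genes, knockout, and patterns, members with Six3 alone, knockout, they were 9.71% and 39.7% at 2 or more and 37.2% and 15.04% at 5 or more.

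With 10 UMIs and 5 CPM as the minimum, 405 genes were higher and 169 lower than in cells at 0, 567 and 142 in the knockout, and 54 and 5 beyond the cells at 0. Thinned, these were 51 higher than in cells at 0, 109 higher in the knockout and 4 lower beyond the cells at 0. Size factors gave 104 lower than in cells at 0. The 1 gene lower beyond the cells at 0 became 5 at 5 UMIs or more, 5 at 5% mitochondrial UMIs, 2 below the 95th percentile, 3 without other-lineage cells, 2 without YFP cells, 7 without shared barcodes (46 higher), and 1 to 3 without either wild-type library. All 3 genes against Six3 alone gave 2 higher and 2 lower thinned, 8 and 34 without other-lineage cells, and 23 lower at 5 or more. Thinning and the low minimum change the UMIs behind each gene; for the other settings the cause was not tested. List medians changed sign in 26 of 501 recomputed values against the cells at 0 and in 36 of 500 between genotypes. Pax6 changed sign in 4 of 434 single-gene values against the cells at 0, and Ntrk2 in 1 of 260 between genotypes.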
